A study of Caenorhabditis elegans with 60 samples.

Results

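The 5 genes described here are members of the cyp-13A cluster of Caenorhabditis elegans, a row of cytochrome P450 genes on chromosome II: cyp-13A2 (CELE_T10B9.7), cyp-13A4 (CELE_T10B9.1), cyp-13A5 (CELE_T10B9.2), cyp-13A6 (CELE_T10B9.3) and cyp-13A7 (CELE_T10B9.10). They are 5 of the 10298 genes in the deposited table. They were chosen on measured values, namely the differences between exposed and control worms in the same 60 libraries, so the height of their response is a description. The limma calls and adjusted p-values given for it below are part of that description and no independent support. Wild-type N2 (Bristol) worms, synchronised as first-stage larvae, grew for 48 h in liquid culture with HFPO-DA (hexafluoropropylene oxide dimer acid, a fluorinated ether acid), and polyadenylated RNA of the whole body was sequenced at shallow depth. There was 1 control group without HFPO-DA and 14 exposed groups at 12.5, 62.5 and 313 µg/L and at 1.56, 7.81, 15.6, 31.3, 62.5, 125, 250, 500, 1000, 2000 and 4000 mg/L, each with 4 replicates. Each replicate was 1 well of about 1000 pooled worms, and all groups, the control included, shared the strain, the age, the S Medium and the E. coli HB101 food. The labels do not say that the wells came from separate worm cultures, so the spread between replicates is the spread between wells.

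Cytochromes P450 are haem enzymes of the endoplasmic reticulum that oxidise steroids, fatty acids, drugs and other foreign compounds, drawing electrons from a reductase and from cytochrome b5. The CYP13A enzymes of worms belong to the same P450 clan as the CYP3A enzymes, which oxidise many drugs in vertebrates. Genes of this kind are often switched on by the compounds a cell is exposed to, and cyp-13A7 is known in worms as a gene induced by the drug rifampicin. What each single CYP13A enzyme oxidises is not given in the labels, and no substrate is assigned here.

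In the WBcel235 annotation the 5 genes lie between 9783384 and 9805513 on chromosome II, a span of 22130 bp. cyp-13A2 (9783384 to 9787629), cyp-13A4 (9795756 to 9797740), cyp-13A5 (9798277 to 9800362) and cyp-13A6 (9800758 to 9802821) lie on the minus strand, and cyp-13A7 (9803620 to 9805513) lies on the plus strand. cyp-13A6 and cyp-13A7 therefore start back to back, with 798 bases between their annotated starts. cyp-13A4, cyp-13A5 and cyp-13A6 follow one another with gaps of 536 and 395 bases, whereas 8126 bases separate cyp-13A2 from cyp-13A4. cyp-13A4, cyp-13A5, cyp-13A6 and cyp-13A7 have 6 annotated exons each, with total exon lengths of 1655, 1665, 1759 and 1623 bases, and cyp-13A2 has 5 exons and 2258 bases. The annotation also places cyp-13A1, cyp-13A3, cyp-13A8 and cyp-13A9 in this row, which were not among the 10298 listed genes and have no values here. cyp-13A3 and cyp-13A9 lie between cyp-13A2 and cyp-13A4. A noncoding gene, T10B9.13, lies on the opposite strand within cyp-13A6, and the sources used here do not say whether reads were counted by strand. How reads shared between these related genes were assigned is not stated either, so the split of reads among neighbours carries that uncertainty.

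The libraries held between 462117 and 4522107 reads over the listed genes, with a median of 1475652.5. The 4 libraries at 4000 mg/L were among the shallow ones, at 737039 to 1249951 reads, against 999346 to 1914706 in the controls. Whole reads were recovered from the deposited values, and a level is given below as normalised reads, that is reads multiplied by a factor of the library that brings all libraries to between 1353215.7 and 1772642.4 normalised reads in total. Intervals around read counts cover counting error only. In RNA of whole worms a change in the share of a cell type and a change of RNA per cell cannot be told apart.

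cyp-13A7 had the highest mean level per kb of exon of the 5 genes from 125 mg/L upward. The 4 control wells held 1, 0, 0 and 0 reads of it. At 125 mg/L the wells held 5, 0, 8 and 5 reads, at 250 mg/L 8, 17, 12 and 13 reads, and at 500 mg/L 57, 69, 115 and 80 reads. At 1000 mg/L the wells held 174, 400, 293 and 112 reads, at 2000 mg/L 497, 709, 607 and 631, and at 4000 mg/L 737, 538, 548 and 1061. From 250 mg/L upward every well lay above every control well, and above every well of the 8 concentrations from 12.5 µg/L to 62.5 mg/L. At 125 mg/L 1 well of 4 held no read while the other 3 held more reads than any control well. In normalised reads the group means were 4.02 ± 3.82 at 125 mg/L, 13.3 ± 4.60 at 250 mg/L, 81.5 ± 16.1 at 500 mg/L, 255.1 ± 66.5 at 1000 mg/L, 590.4 ± 65.4 at 2000 mg/L and 1142 ± 116 at 4000 mg/L (SD, n = 4 each).

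The baseline of cyp-13A7 was close to 0. Over the 36 libraries of the control and the 8 concentrations up to 62.5 mg/L, pooled for a description of the low end, 6 reads were found among 56277762 listed reads, each in a different library, which is 0.107 RPM (reads per 1000000 reads over the listed genes) with an exact Poisson 95% interval of 0.0391 to 0.232. Against this pool the level at 125 mg/L was 20.2-fold higher with an exact binomial counting interval of 7.69 to 62.2, and at 250 mg/L 78.2-fold higher with an interval of 33.5 to 223.3. These intervals leave out the spread between wells, and at 125 mg/L the difference from the control was not called. At 4000 mg/L the fold over the pool was 6982, with an interval of 3204 to 19042. Per kb of exon, cyp-13A7 then ranked 332nd of 10295 genes with an annotated exon length, against a rank of 10284 in the controls.

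cyp-13A6, the gene that starts back to back with cyp-13A7, followed at a lower level. The 4 control wells held no read of it, and the 36 low libraries together held 8. The wells held 1, 1, 0 and 2 reads at 125 mg/L, 3, 4, 4 and 1 at 250 mg/L, and 6, 8, 19 and 12 at 500 mg/L. At 1000 mg/L they held 30, 59, 53 and 17 reads, at 2000 mg/L 110, 275, 191 and 178, and at 4000 mg/L 388, 210, 295 and 404. Every well from 250 mg/L upward lay above the controls, but only from 500 mg/L upward did every well also lie above all wells from 12.5 µg/L to 62.5 mg/L. The group means were 3.28 ± 1.77, 10.9 ± 3.16, 41.3 ± 8.87, 181.0 ± 60.2 and 520.3 ± 82.5 normalised reads at 250, 500, 1000, 2000 and 4000 mg/L (SD, n = 4 each). The fold over the low pool was 14.1 at 250 mg/L with a counting interval of 5.29 to 39.7, and 2355 at 4000 mg/L with an interval of 1192 to 5467.

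cyp-13A4, further along the minus strand, was silent at this depth until high concentrations. Not 1 read of it was found in the 36 libraries of the control and the lowest 8 concentrations, which allows up to 0.0533 RPM by a limit of 3 reads, and the 4 wells at 125 mg/L also held 0. There was 1 read among the 4 wells at 250 mg/L and 2 reads, both in 1 well, at 500 mg/L. At 1000 mg/L the wells held 3, 7, 9 and 3 reads, at 2000 mg/L 25, 62, 44 and 48, and at 4000 mg/L 124, 76, 64 and 153. All 4 wells exceeded all wells of the low pool from 1000 mg/L upward. Against a limit of 3 reads over the 36 low libraries the level was 71.5-fold higher at 1000 mg/L, 521-fold at 2000 mg/L and 2019-fold at 4000 mg/L. These folds leave out the counting error of the exposed wells. Against the 0 reads found, the exact binomial counting intervals of the fold began at 53.4, 420 and 1635. The group means at 1000, 2000 and 4000 mg/L were 5.67 ± 1.23, 43.0 ± 13.5 and 163.9 ± 35.1 normalised reads (SD, n = 4 each).

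cyp-13A5, which lies between cyp-13A4 and cyp-13A6, differed from both in having reads without exposure. The control wells held 3, 3, 3 and 1 reads, and 26 of the 36 low libraries held at least 1, for 68 reads in all and 1.21 RPM (exact Poisson 95% interval 0.938 to 1.53). The wells held 2, 3, 2 and 5 reads at 250 mg/L and 3, 7, 11 and 9 at 500 mg/L, where the groups no longer overlapped with the control. At 1000 mg/L they held 12, 38, 20 and 13 reads, at 2000 mg/L 35, 76, 53 and 64, and at 4000 mg/L 91, 56, 59 and 124. Every well lay above all of the low pool from 1000 mg/L upward. The group means were 7.28 ± 2.29, 22.2 ± 8.12, 54.8 ± 15.4 and 129.6 ± 21.1 normalised reads at 500, 1000, 2000 and 4000 mg/L (SD, n = 4 each), and the fold over the low pool at 4000 mg/L was 70.5, with a counting interval of 54.2 to 92.9.

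cyp-13A2, the most distant of the 5, stayed near its baseline over most of the range. The 36 low libraries held 108 reads of it, 1.92 RPM (exact Poisson 95% interval 1.57 to 2.32). The 4 wells at 4000 mg/L held 3, 3, 5 and 11 reads, which is 4.77, 6.05, 9.33 and 13.4 normalised reads, against 3, 1, 4 and 2 reads in the controls, which is 3.28, 0.850, 4.15 and 3.03 normalised reads. The groups did not overlap in normalised reads, but the highest control well and the lowest exposed well differed by less than 1 normalised read. On the deposited values, which carry a further adjustment by replicate number, they overlapped. At 125, 500, 1000 and 2000 mg/L at least 1 well held no read of cyp-13A2.

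**Figure D1:**
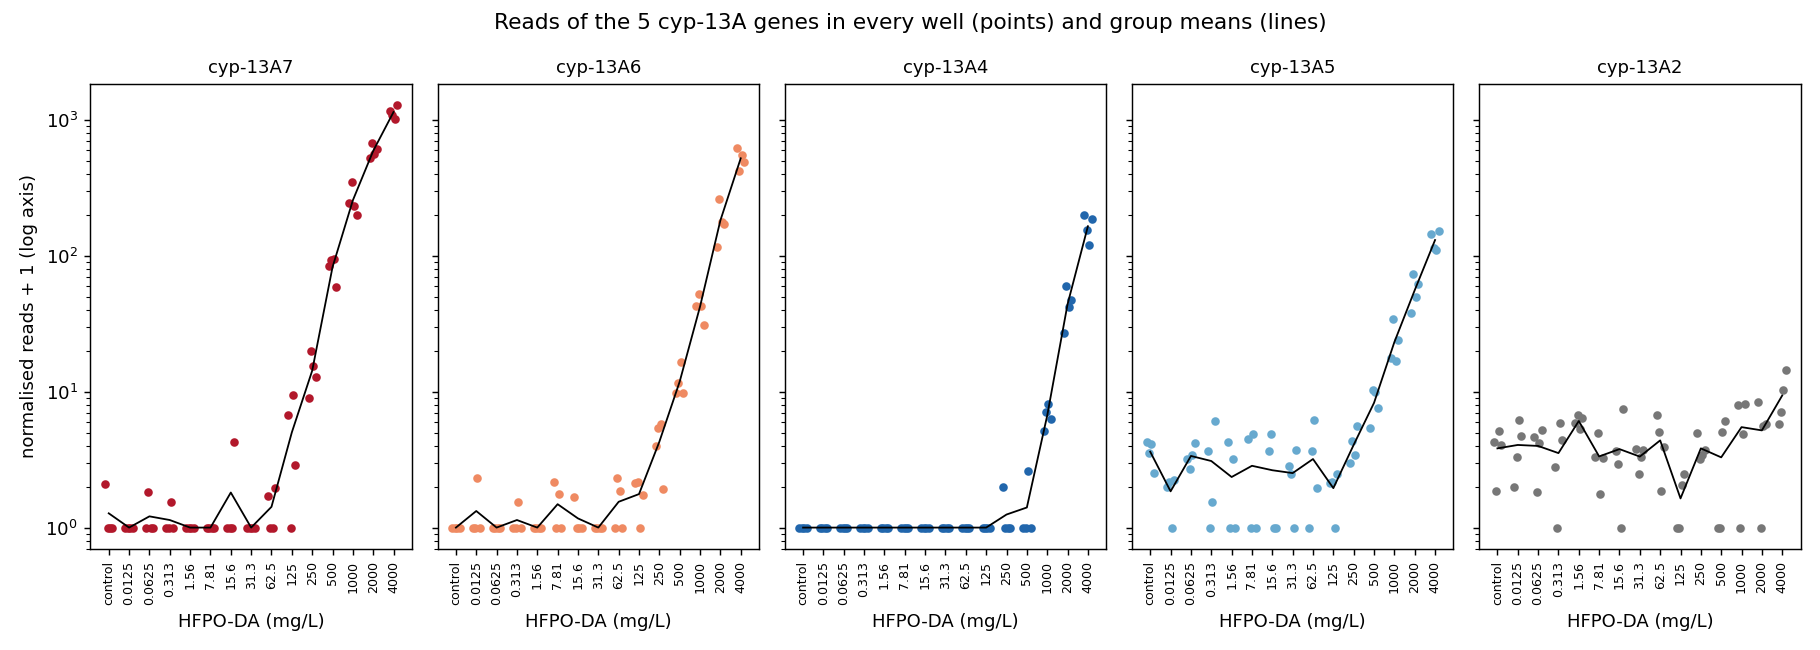
Normalised reads plus 1 (vertical log axis) of each of the 5 genes in every well, by HFPO-DA concentration in mg/L with the control at the left. Points are wells, 4 per concentration, and lines join group means. cyp-13A7 and cyp-13A6 lie above every control well from 250 mg/L upward, and cyp-13A7 reaches 1142 at 4000 mg/L. cyp-13A4 has no read up to 125 mg/L, and cyp-13A2 averages 8.38 normalised reads at 4000 mg/L.

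A limma fit over all 60 libraries on log2(value + 1) gave the number of members called higher than the control at a Benjamini-Hochberg adjusted p under 0.05 over 10293 genes. At 125 mg/L 0 of 5 were called, where 0% of all genes were, also with voom, while 1 member, cyp-13A7, had an unadjusted limma p under 0.05. At 250 mg/L 1 of 5 was called (0.00972% of all genes, the member itself being that gene), at 500 mg/L 2 of 5 (0.0194%), at 1000 mg/L 4 of 5 (0.155%), at 2000 mg/L 4 of 5 (0.311%) and at 4000 mg/L 5 of 5 (14.7%). These contrasts chose the members, so nothing is read from the counts. cyp-13A7 was called from 250 mg/L, cyp-13A6 from 500 mg/L, cyp-13A4 and cyp-13A5 from 1000 mg/L, and cyp-13A2 at 4000 mg/L. The log2 differences from the control at 4000 mg/L were 8.27 ± 0.22 for cyp-13A7, 7.18 ± 0.19 for cyp-13A6, 5.53 ± 0.17 for cyp-13A4, 4.56 ± 0.27 for cyp-13A5 and 0.95 ± 0.30 for cyp-13A2 (SE), against a median of -0.05 over all genes. The deposited values carry a floor of their own, because 0 reads were held as 0.5 and increased by 1. This floor and the added 1 both understate the differences of genes with few or no control reads. For cyp-13A7 at 250 mg/L the log2 difference was 2.09, 2.41 with 0.1 added in place of 1, and 4.16 with voom on the reads. For cyp-13A6 at 500 mg/L the same settings gave 1.93, 2.25 and 4.36. The call of cyp-13A4 at 1000 mg/L was lost when only that group and the control entered the fit (adjusted p = 0.161). The call of cyp-13A2 was lost on quantile-normalised values (adjusted p = 0.0979), with voom on the reads (0.0915), with only the 2 groups in the fit (0.0629), without control replicate 2 (0.0630) and without replicate 4 at 4000 mg/L (0.0585).

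The curves differed in shape as well as in height. From 500 mg/L upward the ratio between neighbouring concentrations was smaller at each step of cyp-13A7, and its ratios at 500 and 4000 mg/L differed by more than their errors. Its mean normalised reads were 6.15 ± 1.23 times those of the next lower concentration at 500 mg/L, 3.13 ± 0.51 times at 1000 mg/L, 2.31 ± 0.33 times at 2000 mg/L and 1.93 ± 0.15 times at 4000 mg/L (SE from the spread between wells). Below that, at 250 mg/L, the ratio was 3.30 ± 1.67, within its error of the ratio at 4000 mg/L. cyp-13A6 gave ratios of 3.31 ± 1.01, 3.80 ± 0.69, 4.39 ± 0.87 and 2.87 ± 0.53 at the same steps, where the last 2 differed by slightly more than the sum of their errors and the others overlapped within them. cyp-13A4 gave ratios of 7.58 ± 1.45 at 2000 mg/L and 3.81 ± 0.73 at 4000 mg/L. cyp-13A5 kept to similar ratios throughout, 2.37 ± 0.58, 3.05 ± 0.74, 2.47 ± 0.57 and 2.36 ± 0.38. In the limma contrasts between neighbouring concentrations 2 of 5 members were called higher at 500 mg/L than at 250 mg/L, where 0.0194% of all genes were. At 1000 mg/L against 500 mg/L 4 of 5 were called (0.068%), at 2000 mg/L against 1000 mg/L 4 of 5 (0.136%) and at 4000 mg/L against 2000 mg/L 4 of 5 (4.59%). cyp-13A2 was called at none of these steps. The call of cyp-13A6 at 500 mg/L was lost with voom (adjusted p = 0.653). That of cyp-13A5 at 1000 mg/L was lost with voom (0.359), with 0.1 added in place of 1 (0.101) and with a filter of 20 in at least 4 libraries (0.0522), and its call at 2000 mg/L with 0.1 added (0.103).

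None of the 4 steep curves levelled off, so a half-rise could only be set relative to the highest concentration tested. The mean normalised reads of cyp-13A7 at 250, 500, 1000 and 2000 mg/L were 1.16%, 7.13%, 22.3% and 51.7% of its mean at 4000 mg/L. For cyp-13A5 the shares were 2.37%, 5.62%, 17.1% and 42.3%, for cyp-13A6 0.630%, 2.09%, 7.93% and 34.8%, and for cyp-13A4 0.151%, 0.248%, 3.46% and 26.2%. By linear interpolation on a log2 concentration axis, 50% of the 4000 mg/L mean was reached at 1921 ± 211 mg/L by cyp-13A7, 2193 ± 299 mg/L by cyp-13A5, 2351 ± 242 mg/L by cyp-13A6 and 2501 ± 168 mg/L by cyp-13A4. The errors are SDs over the 256 curves that take 1 well at each of the 4 highest concentrations. They describe the spread of single-well curves and are no error of the half-rise of the means. Many of these curves share a crossing, because it depends only on the concentrations on either side of the 50% level. Neighbours in this order differed by less than the sum of their SDs, while cyp-13A7 and cyp-13A4 differed by more than the sum of theirs. A level of 10% of the 4000 mg/L mean was passed at 570 mg/L by cyp-13A7, 651 mg/L by cyp-13A5, 1055 mg/L by cyp-13A6 and 1221 mg/L by cyp-13A4. The order turned on the scale: at the midpoint between control and 4000 mg/L on the log2(value + 1) scale, cyp-13A6 came before cyp-13A5, at 992 and 1093 mg/L, after cyp-13A7 at 451 mg/L and before cyp-13A4 at 1547 mg/L.

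**Figure D2:**
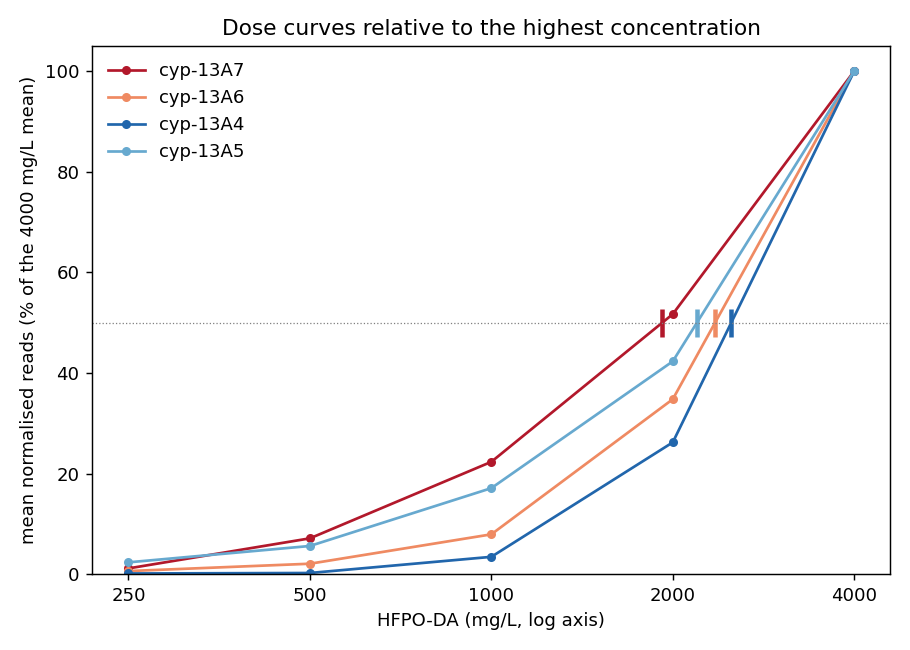
Mean normalised reads of the 4 steep genes in percent of their own mean at 4000 mg/L (vertical axis, linear) against HFPO-DA concentration in mg/L (log axis). Vertical ticks on the dotted 50% line mark the half-rise, from 1921 mg/L for cyp-13A7 to 2501 mg/L for cyp-13A4, and no curve flattens before the highest concentration.

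The ratio of 2 genes within a well does not depend on the library's normalising factor. In the log2 ratios below 0.5 was added to the reads of both genes, so a ratio with few or 0 reads still depends on depth. Both genes of each ratio were chosen on differences from the control in these same libraries, so the tests below are no independent support. They place the wells at 1000 and 2000 mg/L in 1 group, although for cyp-13A6 and cyp-13A4 these concentrations did not overlap. cyp-13A6 had 10.5%, 11.6%, 16.5% and 15.0% of the cyp-13A7 reads in the wells at 500 mg/L and 17.2%, 14.8%, 18.1% and 15.2% at 1000 mg/L. At 2000 mg/L the shares were 22.1%, 38.8%, 31.5% and 28.2%, and at 4000 mg/L 52.6%, 39.0%, 53.8% and 38.1%. Every well at 2000 mg/L lay above every well at 1000 mg/L, while the wells at 4000 and 2000 mg/L overlapped slightly. The mean log2 ratio was -1.14 ± 0.27 at 4000 mg/L (SD, n = 4) and -2.18 ± 0.51 at 1000 and 2000 mg/L together (SD, n = 8), a difference of 1.04 (exact permutation test, two-sided, over the 495 ways of placing 12 wells in these 2 groups, p = 0.00808, adjusted p = 0.0162 over 4 ratios). These wells fell in 4 sets of 12 consecutive sample numbers, each with 1 library of each of these concentrations. Within each set the difference was positive, between 0.70 and 1.42. For these wells the sets were the same as the replicate numbers, by which the exact test did not pair them.

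cyp-13A4 gained on cyp-13A7 by more. It had 1.72%, 1.75%, 3.07% and 2.68% of the cyp-13A7 reads at 1000 mg/L, 5.03%, 8.74%, 7.25% and 7.61% at 2000 mg/L, and 16.8%, 14.1%, 11.7% and 14.4% at 4000 mg/L. The 3 groups did not overlap. The log2 ratio was -2.81 ± 0.21 at 4000 mg/L (SD, n = 4) and -4.57 ± 0.88 at 1000 and 2000 mg/L (SD, n = 8), a difference of 1.76 (same exact permutation test, p = 0.00606, adjusted p = 0.0162), and it was positive within 4 of 4 sets, between 1.27 and 2.40. Set against 1 lower concentration alone, 4 wells against 4, the ratios of cyp-13A4 and cyp-13A6 kept their direction (adjusted p = 0.0762 against 2000 mg/L and 0.0571 against 1000 mg/L for both). The smallest two-sided exact p that 4 wells against 4 allow is 0.0286, so groups that do not overlap can miss the threshold after adjustment. This p was reached by cyp-13A4 against either concentration and by cyp-13A6 against 1000 mg/L. Against 2000 mg/L, where its wells overlapped slightly, cyp-13A6 had an exact permutation p of 0.0571.

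cyp-13A5 kept closer to cyp-13A7. Its reads were 9.06 ± 2.62% of those of cyp-13A7 at 500 mg/L, 8.71 ± 2.30% at 1000 mg/L, 9.16 ± 1.64% at 2000 mg/L and 11.3 ± 0.88% at 4000 mg/L (SD, n = 4 each). The log2 ratio was -3.14 ± 0.11 at 4000 mg/L (SD, n = 4) and -3.49 ± 0.30 at 1000 and 2000 mg/L (SD, n = 8), a difference of 0.35 that did not pass (exact permutation p = 0.0485, adjusted p = 0.0646), and it was positive within 4 of 4 sets, between 0.04 and 0.80. It passed without replicate 4 at 1000 mg/L (0.41, adjusted p = 0.0323). The ratio of cyp-13A2 to cyp-13A7 differed by -0.14 (exact permutation p = 0.899, adjusted p = 0.899) and was positive within 1 of 4 sets, with wells of 0 reads in both lower groups.

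Because of these unequal gains the order of the neighbours changed along the concentration range. Per kb of exon, cyp-13A4 was below cyp-13A5 in 4 of 4 wells at 1000 mg/L, with ratios of 0.185 to 0.453, and in 4 of 4 wells at 2000 mg/L, with ratios of 0.719 to 0.835. At 4000 mg/L cyp-13A4 was above cyp-13A5 in 4 of 4 wells, with ratios of 1.09 to 1.37. Of the normalised reads per kb summed over the 5 genes, cyp-13A7 took 80.9 ± 5.06% at 500 mg/L, 78.6 ± 1.53% at 1000 mg/L, 69.5 ± 4.30% at 2000 mg/L and 59.7 ± 2.94% at 4000 mg/L (SD, n = 4 each). cyp-13A6 took 9.92 ± 1.54%, 11.8 ± 1.18%, 19.1 ± 3.28% and 25.1 ± 3.52% at the same concentrations. cyp-13A4 took 8.34 ± 1.16% at 4000 mg/L and cyp-13A5 6.56 ± 0.44%. In normalised reads per kb at 4000 mg/L the order was cyp-13A7 at 703.6 ± 71.8, cyp-13A6 at 295.8 ± 46.9, cyp-13A4 at 99.0 ± 21.2, cyp-13A5 at 77.8 ± 12.7 and cyp-13A2 at 3.71 ± 1.70 (SD, n = 4 each). Of these only cyp-13A4 and cyp-13A5 lay within their spread of each other. In the control wells, where the 5 genes together gave 3 to 7 reads per well, cyp-13A5 took 54.8 ± 17.5% and cyp-13A2 41.1 ± 17.3%.

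**Figure D3:**
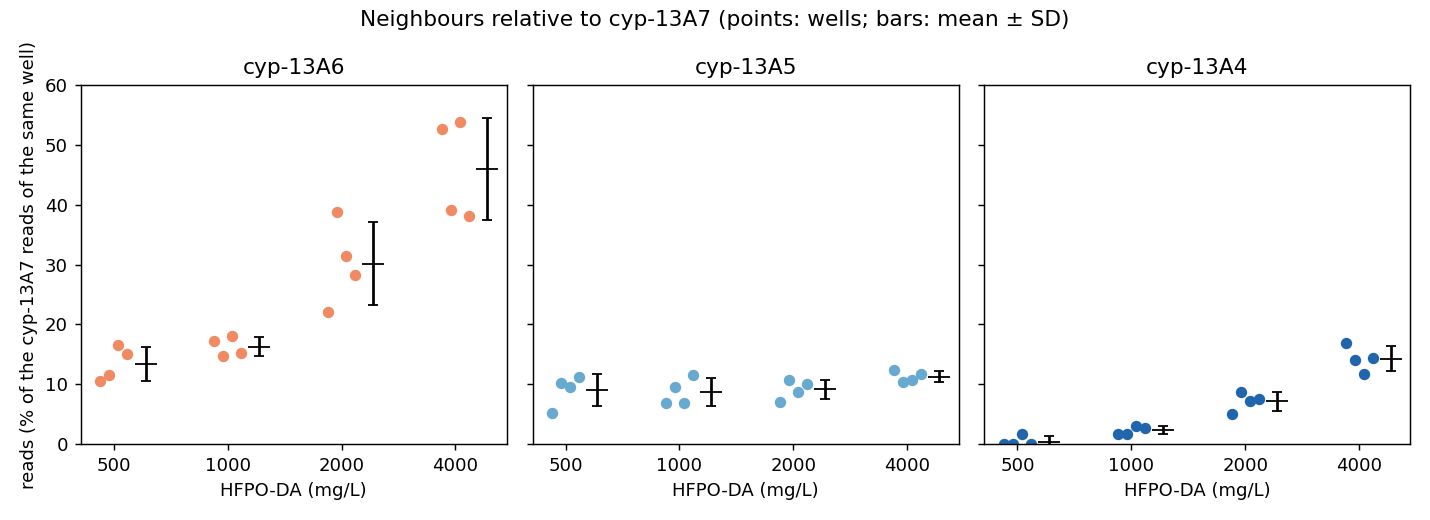
Reads of cyp-13A6, cyp-13A5 and cyp-13A4 in percent of the cyp-13A7 reads of the same well (vertical axis, linear) at 500, 1000, 2000 and 4000 mg/L. Points are wells and bars give the mean ± SD (n = 4). The shares of cyp-13A6 and cyp-13A4 climb to 45.9% and 14.3% at 4000 mg/L, whereas that of cyp-13A5 lies between 8.71% and 11.3%.

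Wells of 1 concentration also differed from each other by more than counting error in several cases. The SD between wells of cyp-13A7 at 1000 mg/L was 66.5 normalised reads where counting alone would give 17.5, and that of cyp-13A6 at 2000 mg/L was 60.2 where counting would give 13.3. Over the 12 wells at 1000, 2000 and 4000 mg/L, deviations of log2(normalised reads + 0.5) from the group mean were compared between each gene and cyp-13A7, with 100000 permutations within concentrations and adjustment over 4 pairs. The points share a library and its normalising factor. For cyp-13A5 Pearson's r was 0.75 (permutation p = 0.0209, adjusted p = 0.0412) and Spearman's rho 0.80 (p = 0.0108, adjusted p = 0.0434), and r was 0.91 without the 2 wells farthest from the median of cyp-13A7 (permutation adjusted p = 0.00336). For cyp-13A6 r was 0.69 (permutation p = 0.0157, adjusted p = 0.0412) and rho 0.62 (p = 0.0610, adjusted p = 0.0896). Without the 2 farthest wells r was 0.59 and no longer passed the threshold (permutation adjusted p = 0.174). For cyp-13A4 r was 0.50 (permutation p = 0.0870, adjusted p = 0.0870) and rho 0.59 (p = 0.0672, adjusted p = 0.0896), with r = 0.73 without the 2 farthest wells (permutation adjusted p = 0.0506). For cyp-13A2, with 0 to 11 reads per well, r was -0.76 (permutation p = 0.0309, adjusted p = 0.0412) and rho -0.57 (p = 0.0984, adjusted p = 0.0984), and r was -0.55 without the 2 farthest wells (permutation adjusted p = 0.184).

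Removing the mean of each set of 12 sample numbers as well left r at 0.72 for cyp-13A5 (permutation adjusted p = 0.05001), 0.69 for cyp-13A6 (adjusted p = 0.0406), 0.43 for cyp-13A4 (adjusted p = 0.216) and -0.68 for cyp-13A2 (adjusted p = 0.05001), an alternative chosen after seeing the data. For these 12 wells the sets were the same as the replicate numbers. None of the relations with cyp-13A7 passed the threshold under every setting tried.

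Among the measured genes around the cluster 1 was called. Of 39 annotated genes within 50 kb of either end, the members included, 10 other genes were in the table. At 4000 mg/L 14.7% of all genes were called higher and 13.7% lower. The called gene was ZK938.1 (9829408 to 9830754, 23895 bp beyond cyp-13A7), with 156.4 ± 44.7 normalised reads at 4000 mg/L and 70.9 ± 29.9 in the controls (SD, n = 4 each), a log2 difference of 1.15 ± 0.33 (SE, limma adjusted p = 0.00778). The nearest measured gene on the other side, ZK1321.4, lies 9442 bp from cyp-13A2 and had a log2 difference of 0.03 ± 0.13. The water channel gene aqp-10 had 0.23 ± 0.15, the potassium channel gene shk-1 0.06 ± 0.29, the germ line translational regulator nos-3 -0.21 ± 0.17, pno-1 0.12 ± 0.10, rnh-1.2 0.14 ± 0.23, Y53C12B.1 -0.13 ± 0.13, Y53C12B.7 0.20 ± 0.30 and ZK938.12 0.40 ± 0.41 (SE).

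**Figure D4:**
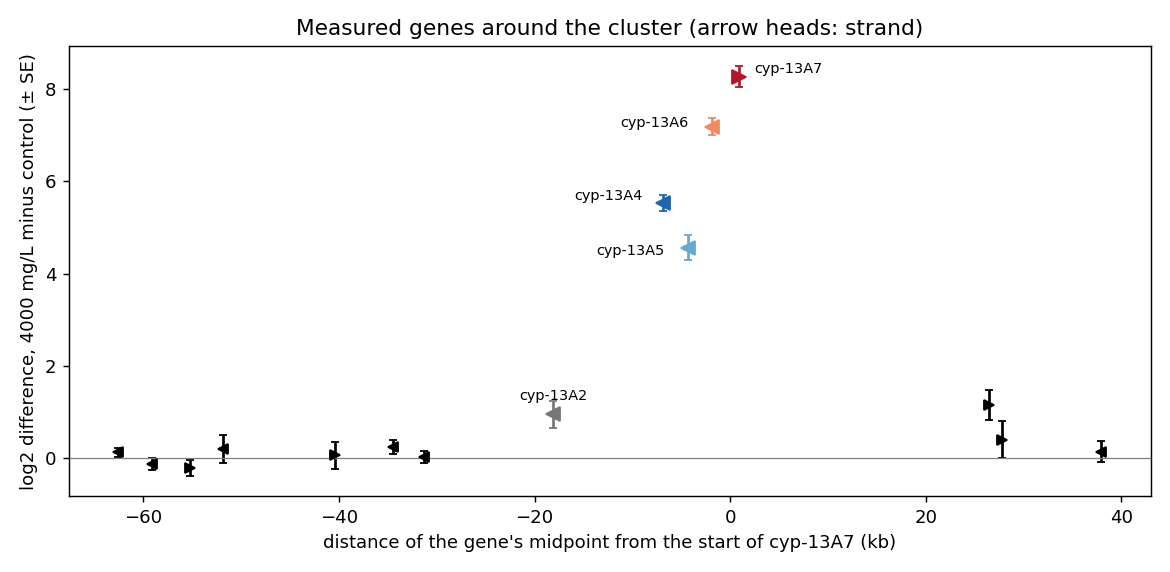
Log2 difference between 4000 mg/L and control (vertical axis, bars ± SE) of the 5 members and the 10 other measured genes within 50 kb, by distance of each gene's midpoint from the start of cyp-13A7 in kb. Arrow heads give the strand. The flanking genes lie between -0.21 and 1.15, and the 4 members other than cyp-13A2 lie at 4.56 or above.

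One further gene of the cyp-13 family was measured, cyp-13B2 (CELE_K06G5.2), which lies on chromosome X. It had 2.09 ± 3.00 normalised reads at 4000 mg/L and 4.20 ± 5.32 in the controls (SD, n = 4 each), a log2 difference of -0.27 ± 0.34 (SE, limma adjusted p = 0.587), and every one of its wells held 20 reads or fewer.

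Among 5039 named genes outside the cluster whose highest group mean was at least 20, the 5 with the curve most like that of cyp-13A7 over the 15 group means of log2(value + 1) were another P450 gene and 4 genes of 1 conjugating enzyme family. They were cyp-34A9 (Pearson's r = 0.97) and the UDP-glucuronosyltransferase genes, whose enzymes attach sugars to foreign compounds: ugt-62 (0.94), ugt-63 (0.92), ugt-19 (0.92) and ugt-61 (0.92). All 15 means share their libraries between genes, and r is given as a description. The members themselves had r of 0.97 (cyp-13A6), 0.95 (cyp-13A5), 0.86 (cyp-13A4) and 0.57 (cyp-13A2) with cyp-13A7. The likeness was in the course of the log2 means and not in size: ugt-62 had 589 ± 101 normalised reads at 4000 mg/L and 60.0 ± 10.9 in the controls, and ugt-19 191.9 ± 27.4 and 4.44 ± 1.32 (SD, n = 4 each). cyp-34A9 had 21.6 ± 7.12 normalised reads at 4000 mg/L and 1.97 ± 1.53 in the controls. At 500 mg/L, where cyp-13A7 was at 81.5 normalised reads, ugt-62 was at 88.6 ± 11.3 and cyp-34A9 at 8.26 ± 2.34. The means of cyp-34A9 at 1000 and 2000 mg/L were 9.25 ± 3.75 and 14.5 ± 4.60 normalised reads. From 500 mg/L upward it thus rose less steeply than cyp-13A7 on the linear scale.

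The genes that supply P450 enzymes with electrons and haem differed by less than the 4 steep members at 4000 mg/L. Of the 3 measured redox partners, cytb-5.1, a cytochrome b5, rose (294 ± 62.5 normalised reads at 4000 mg/L and 197.1 ± 29.7 in the controls, log2 difference 0.56 ± 0.15, limma adjusted p = 0.00438), and cytb-5.2, another cytochrome b5, fell (100.7 ± 32.3 and 131.1 ± 13.0, log2 difference -0.42 ± 0.16, adjusted p = 0.0424), the second not being called by voom. The reductase gene emb-8 had 129.7 ± 28.6 normalised reads at 4000 mg/L and 111.5 ± 11.0 in the controls (log2 difference 0.19 ± 0.16, limma adjusted p = 0.376). Of 10 listed genes of haem handling 5 were measured and 2 rose, where 14.7% of all genes were called higher. hrg-7, which codes for a secreted protease-like protein of haem signalling, had 365.9 ± 63.8 normalised reads at 4000 mg/L and 85.2 ± 33.0 in the controls (log2 difference 2.13 ± 0.24, limma adjusted p = 1.23e-09). hrg-4, a haem importer of the intestine, had 29.0 ± 9.85 and 11.0 ± 3.20 (1.16 ± 0.28, limma adjusted p = 0.00180). At 1000 and 2000 mg/L, where 4 members were called, 0 of these 8 redox and haem genes were called by limma or by voom, where limma called 0.155% and 0.311% of all genes higher. At an unadjusted limma p under 0.05, 2 and 3 of the 8 were higher, where 1.59% and 3.67% of all genes were.

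Of 17 listed regulators of xenobiotic and lipid genes 16 were measured, 0 rose at 4000 mg/L by limma, by voom or at an unadjusted limma p under 0.05, and 2 fell by limma and 1 by voom. Of all genes 14.7% were called higher and 13.7% lower by limma, and 9.82% higher and 7.19% lower by voom, so the share that fell was near that of all genes. Their median log2 difference was -0.06, against -0.05 over all genes. The nuclear hormone receptor genes nhr-86 (log2 difference -0.73 ± 0.16, limma adjusted p = 0.000692) and nhr-66 (-0.57 ± 0.17, adjusted p = 0.00929) were the ones that fell at 4000 mg/L. At 1000 mg/L 0 of the 16 were called by limma or voom, and at 2000 mg/L 1 was called lower by both and 0 higher. At an unadjusted limma p under 0.05, 1 and 2 were lower at these concentrations and 0 higher. The share of all genes that was lower there is not given here. nhr-8, a receptor with a part in xenobiotic resistance, had 14.2 ± 2.46 normalised reads at 4000 mg/L and 17.1 ± 5.38 in the controls (log2 difference -0.20 ± 0.28, limma adjusted p = 0.629).

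Markers of the tissues of the worm moved with the exposure at the top of the range. At 4000 mg/L 4 of 9 measured intestinal markers were called higher and 0 lower, where 14.7% of all genes were called higher and 13.7% lower, and their summed level was 8479 to 11592 normalised reads against 5788 to 8394 in the controls. At 1000 and 2000 mg/L, where 0.155% and 0.311% of all genes were called higher, 0 of the 9 were called by limma or voom, with 1 and 2 at an unadjusted limma p under 0.05, and the sums were 5873 to 8863 and 6542 to 9876. At 4000 mg/L 1 of 4 muscle markers, 1 of 5 neuronal markers, 3 of 3 hypodermal markers and 2 of 3 sperm markers were called higher, and 1 of 4 germ line markers was called lower. With voom 0 of the 4 muscle markers and 1 of the 3 sperm markers were called higher, and the other counts were the same. The hypodermal sum ran between 1.59 and 236.0 normalised reads at 4000 mg/L and between 2.07 and 28.8 in the controls. Their part in the levels of the cyp-13A genes was not tested.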

How the data were processed

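Messenger RNA of 60 wells was read from 1 table of 10298 genes, deposited by the authors as a normalised signal on a linear scale. Per the submitters' processing notes, the build was WBcel235 and the tools were STAR 2.7.10a, edgeR 3.36.0, Trimmomatic 0.39, HTSeq 2.0.1 and UMI-tools 1.1.2 (settings not given in the sources). To give the deposited signal less 1, a whole number of reads was multiplied by a factor of the library and increased by 1. The result was then multiplied by a factor of the gene and replicate number, and 0 reads were held as 0.5. All 617880 values (100%) came out whole within 0.0001 reads, 1.07% of them 0. The recovery and the fit below were tested on simulated data. Levels are recovered reads times the library factor, called normalised reads. Library depth ran between 462117 and 4522107 reads, so a gene with few reads is measured with large counting error. The sources do not state whether PCR copies of a molecule were merged before counting.

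Groups came from the sample titles. The members, gene lists and comparisons were chosen with earlier results of these data known. limma 3.58.1 (R 4.3.3) was fitted on log2(value + 1) over all 60 libraries and 15 groups with an intensity trend, leaving out genes with fewer than 4 libraries at a value of 5 or more (10293 genes tested), with Benjamini-Hochberg adjustment and a threshold of 0.05. Ratios, half-rises, onsets and permutation tests used Python 3.11.15 with numpy 2.4.6 and scipy 1.17.1. Onset is the lowest concentration from which all 4 wells exceeded all controls at every higher one.

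Genes named besides the members are all other measured cyp-13 genes, all measured genes within 50 kb, the 5 with the curve most like cyp-13A7, and of each list up to 3 called at 4000 mg/L with the largest difference. emb-8, nhr-8 and the remaining flanking genes are given for context. Gene names and positions matched by identifier for 10294 genes. The alternatives were other pseudocounts, filters, scalings, a replicate block, a term for sets of 12 sample numbers, voom and each replicate left out.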

Additional observations from a re-analysis of the deposited data

How the results depend on the processing

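Calls of members against the control were within 1.5 times of those reported under 107 of 108 alternatives, those at 125 mg/L being 0 throughout. Within that margin, 4 in place of 5 were called at 4000 mg/L with the filter of 20 and in the settings that lost the call of cyp-13A2. With only the 2 groups in the fit, 3 in place of 4 were called at 1000 mg/L. The replicate block gave 5 members at 4000 mg/L and 1 at 250 mg/L, as without it. The deposited values already carried an adjustment by replicate number, so that agreement is no check on replicate effects. Leaving out 1 replicate gave 1 to 2 members at 250 mg/L, 2 without replicate 4 there. At 500 mg/L against 250 mg/L voom called 1. Replicate numbers did not pair exposed with control wells: in 24 pairs of an exposed and a control well with the same number, deviations over 7992 genes correlated between -0.32 and 0.22, above 0.1 in 2. Whether exposed wells of the same replicate number were paired with each other was not checked. The half-rise moved by more than its SD with the midpoint of the log2(value + 1) scale, to 1547 mg/L for cyp-13A4, 1093 mg/L for cyp-13A5, 992 mg/L for cyp-13A6 and 451 mg/L for cyp-13A7, by the construction of that scale. Onset moved to 1000 mg/L for cyp-13A5 and 500 mg/L for cyp-13A6 against all wells up to 62.5 mg/L, and, going by group means, to 500 mg/L for cyp-13A4 and 125 mg/L for cyp-13A6 and cyp-13A7. The log2 ratio to cyp-13A7 at 4000 mg/L lay above that at 2000 mg/L by 1.00 for cyp-13A4 and 0.61 for cyp-13A6 and above that at 1000 mg/L by 2.52 and 1.46, with 8 wells in each test. For cyp-13A2 it turned to 0.50 against 2000 mg/L and ran between -0.65 and 0.18 with 1 well left out, and for cyp-13A5 between 0.30 and 0.41. The correlation of well deviations with cyp-13A7 was 0.64 for cyp-13A4 on RPM values and 0.61 for cyp-13A5 with 500 mg/L included. It was -0.55 for cyp-13A2 and 0.59 for cyp-13A6 without the 2 farthest wells, and -0.68 for cyp-13A2 and 0.72 for cyp-13A5 with the set of sample numbers removed. The cause was not tested. Depth limits cyp-13A2, cyp-13A4 below 1000 mg/L and all members at the low end.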
